A study of Mus musculus with 8 samples.

Results

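Hox genes encode homeodomain transcription factors that sit in 4 clusters in mammals, Hoxa to Hoxd, where members numbered alike are paralogs. The table was searched for symbols made of Hox, a cluster letter and a paralog number, which found 39 of its 23420 genes, with 11 in Hoxa, 10 in Hoxb, 9 in Hoxc and 9 in Hoxd. The membership rule used names and no measured value. Total RNA had been sequenced from mouse embryos of the C57BL/6 strain, wild type and at E12.5, as 4 libraries of supraorbital cranial mesenchyme (SOM) and 4 libraries of early migrating cranial mesenchyme (EMM). All libraries shared genotype, strain and age, and each combined the tissue of 4 to 5 embryos, so p-values measure the spread between pools. Head tissue had been treated with dispase, and brain and surface ectoderm were peeled away before the RNA was taken. The labels do not tell whether a SOM and an EMM pool were cut from shared embryos.

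The SOM libraries held 16.8 to 33.7 M gene-assigned reads and the EMM libraries 12.7 to 22.4 M, with the smallest library being EMM replicate 2. SOM and EMM libraries lay apart on the first principal component, which took 85.4% of the variance. All 10 markers of head mesenchyme, among them Twist1, Prrx1 and Alx4, were past the level filter. Of these, 4 were higher in SOM, 4 higher in EMM and 2 not past the test, and their summed normalized count was 50136 to 54460 in SOM and 53512 to 56349 in EMM. Among all tested genes, 36.0% were called higher in SOM and 36.1% higher in EMM.

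Genes at the 3' end of a cluster carry low paralog numbers and are turned on earlier and further toward the head than genes at the 5' end, a relation known as collinearity. The neural crest and mesoderm of the upper face and front of the skull are known as tissue in which Hox genes are largely silent, whereas the hindbrain, the second pharyngeal arch, the trunk and the limbs use them. Hox proteins bind DNA together with cofactors of the TALE homeodomain class (Pbx, Meis and Pknox). The Hox genes respond to retinoic acid and are kept silent outside their domains by Polycomb complexes.

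The promoters of Hoxd1 and Hoxd4 are shown because Hoxd1 held most of the Hox reads in both tissues and Hoxd4 had the largest ratio between them of the 5 Hoxd genes tested below. Each is the 250 bases before the start annotated by RefSeq on GRCm38.p6, plus strand, with matches to CCAAT or TATAAA on either strand in capitals. The Hoxd1 window is chr2:74762730-74762979 and shares 118 bases with an exon of the long noncoding RNA Haglr on the minus strand. The Hoxd4 window is chr2:74721728-74721977, inside the annotated spans of Hoxd3 and Hoxd4 and touching no annotated exon.
Hoxd1: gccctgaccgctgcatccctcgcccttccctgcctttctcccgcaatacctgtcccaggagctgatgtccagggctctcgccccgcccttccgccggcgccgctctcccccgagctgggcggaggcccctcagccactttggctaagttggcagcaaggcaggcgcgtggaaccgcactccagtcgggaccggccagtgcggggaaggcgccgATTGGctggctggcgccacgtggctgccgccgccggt
Hoxd4: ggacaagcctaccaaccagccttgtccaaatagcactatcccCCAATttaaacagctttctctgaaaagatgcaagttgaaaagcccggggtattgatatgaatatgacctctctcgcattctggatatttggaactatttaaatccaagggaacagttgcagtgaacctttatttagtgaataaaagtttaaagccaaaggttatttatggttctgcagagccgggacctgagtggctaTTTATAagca
The Hoxd1 window was 71.6% G and C and the Hoxd4 window 40.4%, where the median of 32851 mouse promoter windows of this length was 52.4%. CCAAT was found on either strand in the windows of Hoxd1, Hoxd3, Hoxd4 and Hoxd8, and not in that of Hoxd9, while 33.8% of all windows held it. TATAAA was found only in the Hoxd4 window of these 5 genes, against 12.4% of all windows, on the minus strand with its leftmost base at -10 from the start. A Pbx-Hox site (TGATTNAT, in 2.82% of all windows) and a Meis site (TGACAG, in 15.9%) had no match in the 5 windows. Promoter windows were matched for 22 of the 39 Hox genes.

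Hox expression in both tissues was mostly that of the Hoxd cluster, and within it of Hoxd1. Of the 39 genes, 24 had at least 1 read in SOM and 20 in EMM, 27 had a read in either tissue and 12 had none in any library. Summed over libraries, Hox genes took 1899 reads in SOM and 419 in EMM. Hoxd held 95.3% of these reads in SOM, 94.6 to 95.9% by library, and 89.0% in EMM, 80.0 to 92.7% by library. Reads on Hox genes were few for the size of the table: 69.2% of Hox genes had any read against 80.9% of all genes, and 12.8% passed the level filter against 60.8% of all genes. That filter kept a gene if 4 or more of the 8 libraries reached 10 normalized counts.

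By cluster, Hoxa had 15 reads in SOM over 6 of its genes and 18 in EMM over 7. Hoxb had 55 reads in SOM over 7 genes and 22 in EMM over 4. Hoxc had 20 reads in SOM over 4 genes and 6 in EMM over 3. Hoxd had 1809 reads in SOM over 7 genes and 373 in EMM over 6. Reads over all paralogs of a number are given next for the numbers that had most. Among paralog 1 genes, Hoxd1 had 1249 reads in SOM and 280 in EMM. Paralog 8 had 274 reads in SOM and 71 in EMM, and paralog 3 had 139 in SOM and 24 in EMM. Paralog 4 had 122 reads in SOM and 13 in EMM, and paralog 9 had 77 in SOM and 12 in EMM. No read fell on any of the 3 genes of paralog 6 or the 2 genes of paralog 12, and the paralog groups 2, 5, 7, 10, 11 and 13 had between 1 and 14 reads each over all 8 libraries.

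**Figure D1:**
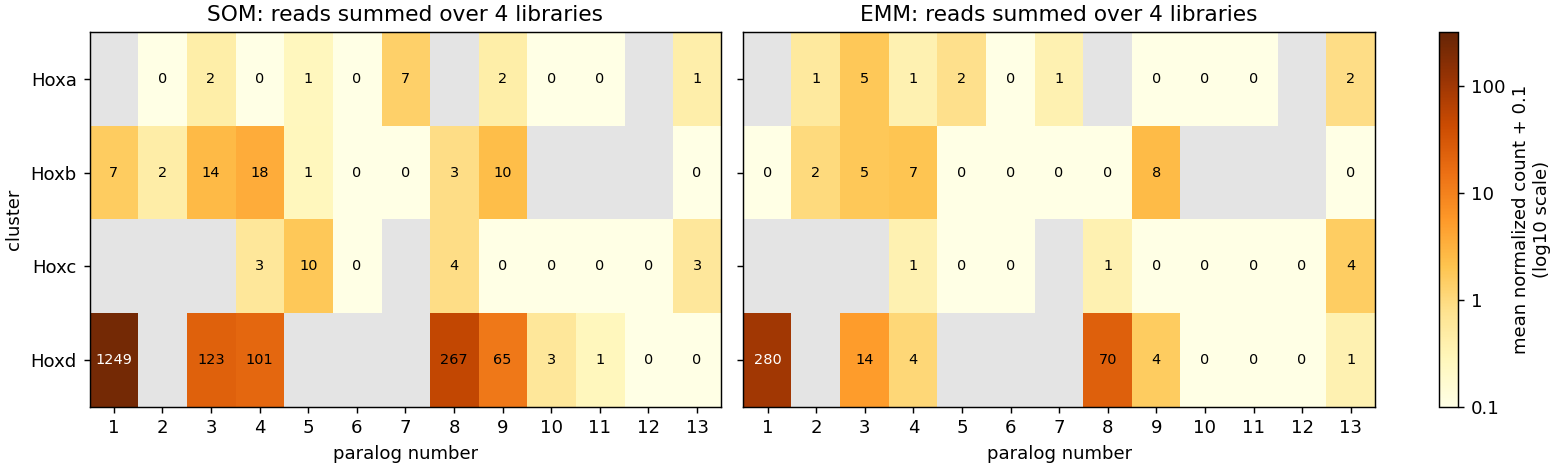
Reads on each Hox gene summed over 4 SOM libraries (left) and 4 EMM libraries (right), by cluster (rows) and paralog number (columns). Colour gives the mean normalized count plus 0.1 on a log10 scale, and grey marks combinations with no gene or not shown; the dark cells lie in the Hoxd row, led by Hoxd1 with 1249 reads in SOM and 280 in EMM.

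The 12 genes without a read were Hoxa6, Hoxa10, Hoxa11, Hoxb6, Hoxb7, Hoxb13, Hoxc6, Hoxc9, Hoxc10, Hoxc11, Hoxc12 and Hoxd12, most of them genes of the trunk, limb and tail. A count of 0 allows up to 3 reads per group, or a mean of 0.567 normalized counts in SOM and 0.928 in EMM. Counting intervals and these limits cover counting error only. Single libraries had reads on 13 to 17 Hox genes in SOM and on 8 to 13 in EMM. Scaled to the depth of the smallest library, the expected number was 11.3 to 12.3 in SOM and 7.06 to 13 in EMM. The 13 is EMM replicate 2, the smallest library itself, and the other EMM libraries, at 7.06 to 8.38, lay below every SOM library.

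The summed level of all Hox genes was 351, 358, 386 and 336 normalized counts in SOM replicates 1 to 4, a mean of 358 ± 21.0 (SD, n = 4). In EMM replicates 1 to 4 it was 126, 260, 73.2 and 110 normalized counts, a mean of 142 ± 81.6 (SD, n = 4). All 4 SOM libraries lay above all 4 EMM libraries, and the EMM libraries were spread far more widely, with replicate 2 at the top and replicate 3 at the bottom. In tissue pools like these, fewer cells that express a gene and less RNA per cell cannot be told apart.

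Hoxd1, the 3' gene of its cluster, is known in mouse for its part in the wiring of pain-sensing neurons and in the early hindbrain and mesoderm. Its normalized count was 235, 220, 262 and 226 in SOM replicates 1 to 4, and 79.7, 183, 48.1 and 74.0 in EMM replicates 1 to 4. The SOM libraries were close together, and EMM replicate 2 came nearest to them without reaching their range. The mean was 236 ± 18.5 in SOM and 96.1 ± 59.3 in EMM (SD, n = 4 each). The limma difference, SOM minus EMM on the log2(normalized count + 1) scale used below, was 1.46 (SE 0.37, adjusted p = 0.00934). The gene lies on the plus strand of chromosome 2 from 74762980 to 74765142 on GRCm38, and none of its exonic bases are shared with another annotated gene.

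Hoxd3, whose loss in mice changes the first neck vertebra, had 17.6, 32.9, 19.1 and 21.4 normalized counts in SOM replicates 1 to 4, and 3.07, 10.8, 0 and 6.73 in EMM replicates 1 to 4. The lowest SOM library stood above the highest EMM library. Its means were 22.8 ± 6.92 in SOM and 5.16 ± 4.68 in EMM (SD, n = 4 each), and the log2 difference was 2.39 (SE 0.66, limma adjusted p = 0.00728). Without EMM replicate 3, which had no Hoxd3 read, the difference was 1.68.

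Hoxd4, known for the second neck vertebra and for a retinoic acid response in the hindbrain, had the largest ratio between the tissues of the 5 Hoxd genes tested. It had 21.4, 23.8, 16.6 and 16.03 normalized counts in SOM replicates 1 to 4, and 4.09 in EMM replicate 1 with no read in the other EMM libraries. There were 101 reads in SOM and 4 in EMM, a depth-scaled ratio of 15.4 with a 95% counting interval of 5.84 to 57.7. The means were 19.5 ± 3.77 in SOM and 1.02 ± 2.04 in EMM (SD, n = 4 each), and the log2 difference was 3.75 (SE 0.51, limma adjusted p = 6.39e-06).

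Hoxd8, a gene of the trunk, had the next highest level after Hoxd1. Its normalized count was 42.8, 51.1, 60.0 and 44.1 in SOM replicates 1 to 4, and 24.5, 39.8, 9.41 and 20.2 in EMM replicates 1 to 4. Again the groups did not overlap, with EMM replicate 2 just under the lowest SOM library. The means were 49.5 ± 7.89 in SOM and 23.5 ± 12.6 in EMM (SD, n = 4 each), and the log2 difference was 1.19 (SE 0.33, limma adjusted p = 0.00595).

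Hoxd9, which with its paralogs patterns the forelimb and the lumbar region, had 15.1, 11.2, 12.8 and 11.4 normalized counts in SOM replicates 1 to 4, and 1.02, 3.61, 0 and 1.35 in EMM replicates 1 to 4. There were 65 reads in SOM and 4 in EMM. The depth-scaled ratio was 9.93, with 95% counting bounds of 3.70 and 37.5. The log2 difference was 2.64 (SE 0.46, limma adjusted p = 7.47e-05).

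**Figure D2:**
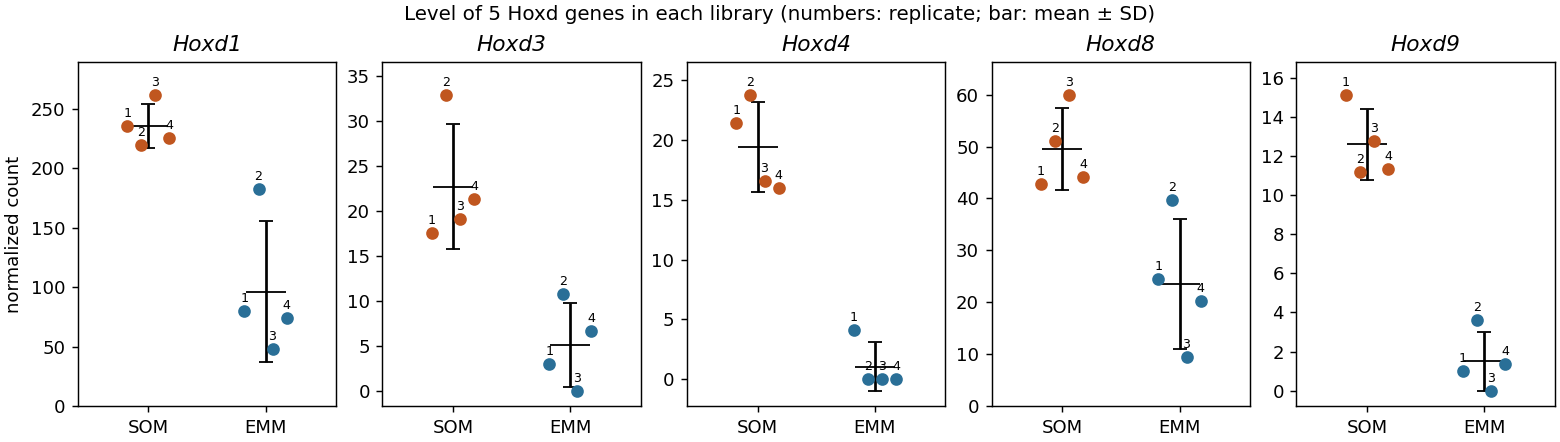
Normalized count of Hoxd1, Hoxd3, Hoxd4, Hoxd8 and Hoxd9 in each library of SOM (left in each panel) and EMM (right), points numbered by replicate, bars for mean ± SD (n = 4). In each panel the 4 SOM points lie above the 4 EMM points, and EMM replicate 2 is the highest EMM point for all but Hoxd4.

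These 5 genes were the Hox genes that passed the level filter, and each was higher in SOM, while 36.0% of the 14249 tested genes were called higher in SOM and 36.1% higher in EMM. The libraries did not overlap in any of the 5, a pattern toward SOM that 32.9% of tested genes showed. Hoxd4 and Hoxd9 reached 10 normalized counts in the 4 SOM libraries alone, and Hoxd3 in these and 1 EMM library, so those genes could hardly pass the filter without differing. Their count is a description and lends no weight to the direction. Hoxd1 passed in all 8 libraries and Hoxd8 in 7. In the authors' deposited table, where the sign runs EMM over SOM, the log2 fold change was -1.13 for Hoxd1 and -2.56 for Hoxd4, with deposited adjusted p-values of 0.00224 and 8.51e-08. The deposited sizes were smaller than those of DESeq2 run here on the recovered reads, 1.31 and 4.00 for SOM over EMM. They are therefore not to be set against the limma differences.

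The differences in Hoxd3, Hoxd4 and Hoxd9 rest on few EMM reads, 14, 4 and 4, and the fitted size moved with the added constant. With a constant of 5 in place of 1 the log2 difference was 1.55 for Hoxd3, 2.06 for Hoxd4 and 1.46 for Hoxd9. With 0.5 it was 2.70, 4.50 and 3.07. Hoxd1 and Hoxd8 moved little, to 1.41 and 1.04 with a constant of 5.

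Leaving out EMM replicate 2 or 3 moved the differences of Hoxd1 and Hoxd8 most. Without EMM replicate 2 the log2 difference was 1.82 for Hoxd1 and 1.49 for Hoxd8, and without EMM replicate 3 it was 1.19 for Hoxd1 and 0.84 for Hoxd8. Over the 8 fits that left out 1 library, the highest adjusted p (limma) was 0.0312 for Hoxd1, 0.0263 for Hoxd3, 7.20e-05 for Hoxd4, 0.0197 for Hoxd8 and 0.00058 for Hoxd9. Hoxd3, Hoxd4 and Hoxd9 passed the level filter through the SOM libraries, so their p-values lend no weight to the direction.

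**Figure D3:**
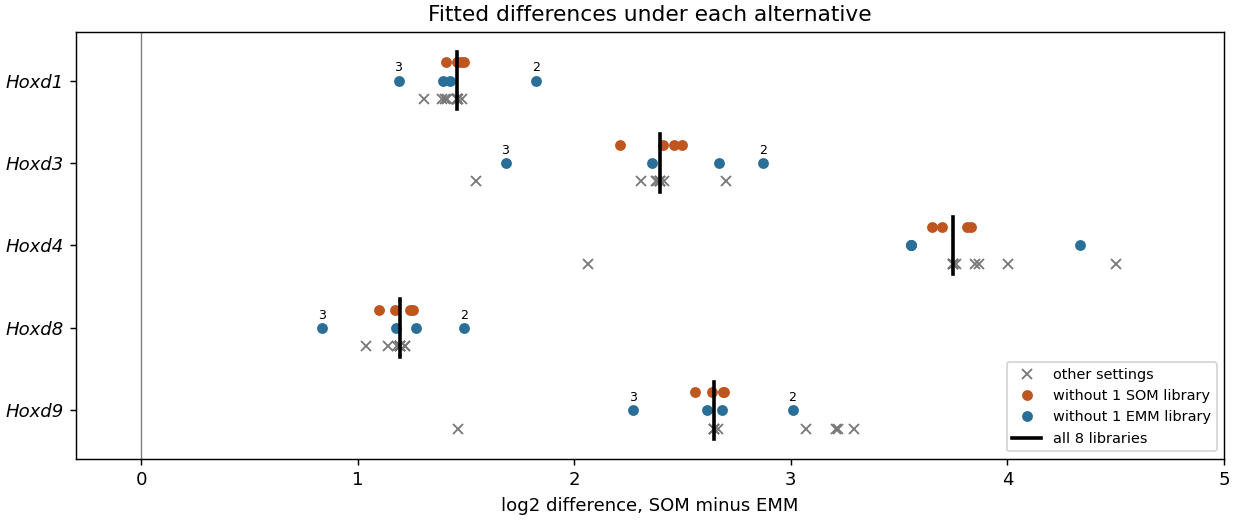
Log2 difference of 5 Hoxd genes, SOM minus EMM, with all 8 libraries (black line), without each SOM or each EMM library (dots) and under other settings (crosses). The digits 2 and 3 mark the fits without EMM replicates 2 and 3, which give 1.82 and 1.19 for Hoxd1; every point lies above 0.

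Per length, Hoxd1 was the highest Hox gene in both tissues. In reads per kilobase of exon and per M reads of the library, it stood at 5.94 ± 0.436 in SOM and 2.24 ± 1.39 in EMM (SD, n = 4 each). By normalized count it lay at percentile 49.6 in SOM and 40.0 in EMM among the genes with a read. Hoxd8 stood at 0.846 ± 0.132 in SOM and 0.372 ± 0.200 in EMM on this scale. In SOM the libraries of Hoxd3 ran from 0.281 to 0.526, those of Hoxd4 from 0.291 to 0.441 and those of Hoxd9 from 0.247 to 0.335, so the order among these 3 was not resolved. In EMM, Hoxd3 ranged from 0 to 0.159, Hoxd9 from 0 to 0.0737 and Hoxd4 from 0 to 0.0696, and their ranges overlapped as well.

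Of the summed reads of the 5 genes, Hoxd1 took 64.9 to 70.9% in the SOM libraries and 70.9 to 83.6% in the EMM libraries. Hoxd8 took 12.9 to 16.2% in SOM and 16.4 to 21.8% in EMM, and for both genes the ranges nearly met. Hoxd9 took 3.31 to 4.55% in SOM and 0 to 1.53% in EMM, and Hoxd4 took 4.48 to 7.02% in SOM and 0 to 3.64% in EMM. The shares of Hoxd3 overlapped, at 5.17 to 9.71% in SOM and 0 to 6.58% in EMM. These shares sum to a whole in each library, rest on few reads in EMM and were not tested.

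Along chromosome 2 the reads in SOM fell away between Hoxd9 and Hoxd10. In EMM they were already few at Hoxd9, with 4 reads against 70 on Hoxd8. On GRCm38 the cluster runs on the plus strand from Hoxd13 (start 74668310) to Hoxd1 (end 74765142). Hoxd9 (74697727 to 74700208), Hoxd8 (74704615 to 74707933), Hoxd4 (74711929 to 74729160) and Hoxd3 (74711927 to 74748442) carried 65, 267, 101 and 123 reads in SOM and 4, 70, 4 and 14 in EMM. The genes on the 5' side, which serve the distal limb, genital region and tail, were almost empty, with 3 reads on Hoxd10 and 1 on Hoxd11 in SOM and 1 on Hoxd13 in EMM. Evx2, the homeobox gene next to Hoxd13, had no read.

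The flanking genes, which are not Hox genes, were expressed in both tissues. Lnpk, an endoplasmic reticulum protein gene listed as Lnp, had 698 ± 51.1 normalized counts in SOM and 700 ± 61.3 in EMM, and did not pass the test (limma adjusted p = 0.975). Mtx2, a mitochondrial membrane gene beyond Hoxd1, had 1750 ± 129 in SOM and 1446 ± 46.1 in EMM (SD, n = 4 each), a log2 difference of 0.27 (SE 0.06, limma adjusted p = 0.000458).

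**Figure D4:**
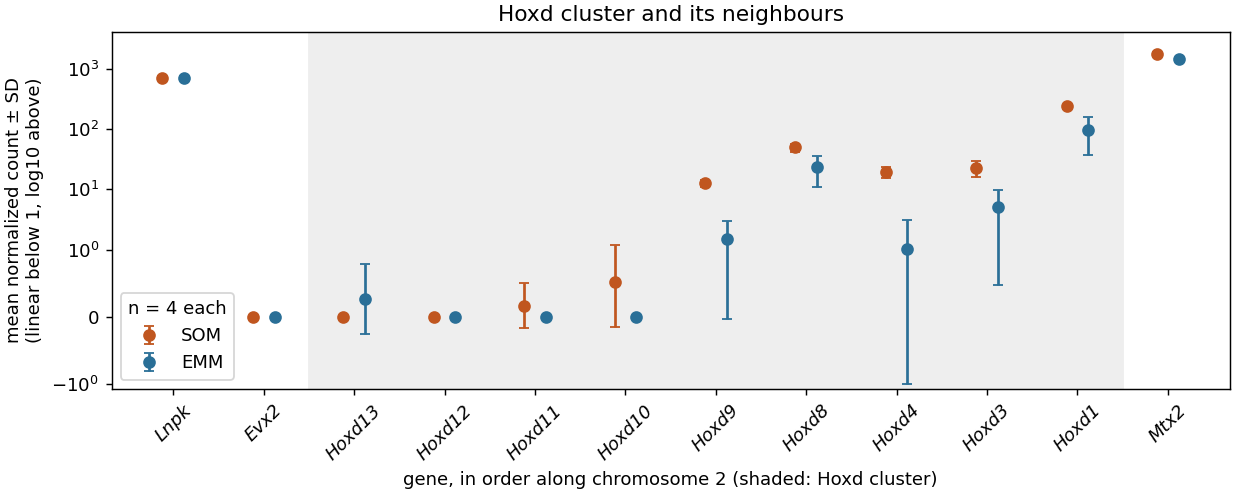
Mean normalized count ± SD (n = 4 each) of the Hoxd genes (shaded) and their neighbours in their order along chromosome 2, for SOM (left point of each pair) and EMM (right), on an axis that is linear below 1 and log10 above. Levels are near 0 from Evx2 to Hoxd10, and each plotted SOM mean from Hoxd9 to Hoxd1 is above its EMM mean.

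Exons of Hoxd3 share 388 bases with Hoxd4, 2225 bases with the transcript Gm28230 and 347 bases with the antisense gene Hoxd3os1, and Hoxd4 shares 1154 bases with Gm28230. No source states whether counting used the strand, so reads in these bases cannot be assigned to 1 gene with certainty. Hoxd3os1 had 12 reads in SOM and none in EMM. Hoxd8 and Hoxd9 share no exonic bases with another annotated gene. Of 22 noncoding and microRNA genes of the clusters on a list, 11 were in the table and none passed the filter. The microRNA genes Mir10a, Mir10b and Mir196b were at 0. Mir10b spans only 74726070 to 74726137, and a 0 at so short an entry says little on the level of the microRNA.

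The 34 Hox genes below the filter had 94 reads in SOM and 47 in EMM together, with at most 25 on a gene and 7 in a library. Of these genes, 12 had reads in both tissues, 7 in SOM alone, 3 in EMM alone and 12 in neither. Their summed level was 17.9 ± 1.62 normalized counts in SOM, 15.96 to 19.6 by library, and 15.1 ± 6.41 in EMM, 8.08 to 23.5 by library (SD, n = 4 each), and the ranges overlapped. Hoxb4, a gene of the posterior hindbrain and of blood progenitors, had the most reads of them, 18 in SOM and 7 in EMM. Its normalized count was 3.78, 2.80, 2.55 and 4.67 in SOM replicates 1 to 4, and 6.13, 0, 0 and 1.35 in EMM replicates 1 to 4, with EMM replicate 1 the highest of all. The ratio was 1.57 with a 95% counting interval of 0.626 to 4.45, which includes 1.

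Hoxb3 and Hoxb9 followed with 14 and 10 reads in SOM and 5 and 8 in EMM. Hoxa2, the gene that gives the second arch its identity, had 0 reads in SOM and 1 in EMM, and Hoxb2 had 2 in each. Hoxa3, a gene of the third arch, had 2 reads in SOM and 5 in EMM. When all 18943 genes with a read were tested by limma without the level filter, Hoxb1 (7 reads in SOM, 0 in EMM) and Hoxc5 (10 in SOM, 0 in EMM) were also called higher in SOM, at adjusted p = 0.0238 and 0.0237. In that fit 28.7% of all genes were called higher in SOM and 28.9% in EMM. The edgeR quasi-likelihood test on the recovered reads called Hoxc5 (adjusted p = 0.0231) and not Hoxb1 (adjusted p = 0.0567). The 95% counting interval of the ratio of SOM over EMM began at 1.37 for Hoxc5 and at 0.881 for Hoxb1.

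All 9 TALE cofactors on the list were tested, with 7 higher in SOM and 2 higher in EMM, and a median log2 difference of 0.41 against 0.0099 over all tested genes. Meis2 had 1609 ± 129 normalized counts in SOM and 635 ± 89.9 in EMM, a log2 difference of 1.35. Meis3 had 996 ± 66.4 in SOM and 629 ± 13.2 in EMM, and Pbx2 had 3823 ± 72.1 in SOM and 2895 ± 93.2 in EMM. The lowest of the list was Pbx4, with 56.0 ± 9.45 in SOM and 26.5 ± 4.37 in EMM. The 2 that were higher in EMM were Pbx3, with 1015 ± 84.4 in SOM and 1587 ± 99.8 in EMM, and Pknox2, with 1152 ± 85.7 in SOM and 1507 ± 52.1 in EMM (SD, n = 4 each).

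Among 12 tested genes of retinoic acid receptors and metabolism, 6 were higher in SOM, 4 were higher in EMM and 2 missed the threshold. Their median log2 difference was 0.22. Cyp26b1, which degrades retinoic acid, had 1227 ± 105 normalized counts in SOM and 167 ± 23.8 in EMM (SD, n = 4 each), a log2 difference of 2.88. The receptor Rxrg and the retinoic acid producing enzyme Aldh1a3 were higher in SOM by 2.60 and 2.08 on the log2 scale. Dhrs3, which turns retinaldehyde back to retinol, was lower in SOM with a log2 difference of -1.48, and so were Rdh10 (-0.76) and Aldh1a1 (-1.94), both enzymes on the way to retinoic acid. Cyp26a1 and Cyp26c1 were below the filter.

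Of 24 Polycomb and trithorax genes tested, 14 were higher in SOM, 3 higher in EMM and 7 missed the threshold, and the median log2 difference was 0.33. Cbx2, Ezh2 and Phc2, all of Polycomb complexes, were higher in SOM by 0.86, 0.67 and 0.53, and Phc3, Rnf2 and Kdm6a were higher in EMM (-0.47, -0.18 and -0.25). Other known upstream factors gave 1 higher in SOM, 2 higher in EMM and 2 not past the test of 5, with a median of -0.16. There the Wnt effector Tcf7l2 was higher in SOM by 1.10. The counts of these lists are descriptions, to be read beside the 36.0% of all tested genes called higher in SOM and the 36.1% called higher in EMM.

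None of the 13 homeobox genes beside or related to the clusters passed the filter, and 5 of them had no read. Otx2, which marks the anterior head and brain, had 1 read in SOM and 26 in EMM, and Evx1, beside the Hoxa cluster, had 0 in SOM and 16 in EMM. The summed level of these 13 genes was 5.04 to 7.35 normalized counts in SOM and 22.5 to 43.4 in EMM, a direction opposite to that of the Hoxd genes.

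Markers of other cells differed between the groups in some lists and split in others. Their counts, here and in the next paragraph, are descriptions. Of all tested genes, 36.0% were called higher in SOM and 36.1% higher in EMM. Crest glia markers were higher in SOM for 6 of 7 genes and higher in EMM for 1, with summed levels of 1123 to 1281 in SOM and 221 to 267 in EMM; Sox10 had 513 ± 46.4 normalized counts in SOM and 4.35 ± 1.69 in EMM. Neuron markers split 3 higher in SOM, 3 higher in EMM and 1 not past the test of 7, with summed levels of 2873 to 3112 in SOM and 1234 to 1616 in EMM. Hindbrain and spinal cord markers split 1, 1 and 1 of 3 tested, with summed levels of 511 to 718 in SOM and 365 to 421 in EMM. There Olig2 had 547 ± 98.5 in SOM and 0.256 ± 0.511 in EMM, and Nkx6-1 had 39.4 ± 13.9 in SOM and 327 ± 62.1 in EMM (SD, n = 4 each). Sox2, with 18.8 ± 1.80 in SOM and 19.5 ± 10.97 in EMM, did not pass, while Atoh1 and Nkx6-2 were at 0 and Olig3 and Lbx1 at 0 in SOM.

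Somite and trunk markers were higher in SOM for 2 of 4 tested, Pax1 and Meox1, and did not pass for 2, with summed levels of 1527 to 2153 in SOM and 376 to 508 in EMM. Both limb markers tested, Tbx4 and Tbx5, were higher in SOM, with list sums of 96.8 to 117 in SOM and 18.8 to 50.6 in EMM. Forebrain and midbrain markers were higher in SOM for 1 (Emx2, 880 ± 111 in SOM and 132 ± 56.9 in EMM) and in EMM for 2 of 3 tested, with a median log2 difference of -2.87. Their list sums were 759 to 1003 in SOM and 161 to 477 in EMM. Lhx2, 1 of the 2, had 8.94 ± 2.59 in SOM and 83.6 ± 52.9 in EMM. Macrophage markers were lower in SOM for 10 of 10 genes (2578 to 2945 in SOM, 10844 to 13558 in EMM). Red blood cell markers were lower in SOM for 8 of 8 tested (57391 to 73850 in SOM, 112872 to 271336 in EMM). Hba-a1 and Hba-a2 were at 0. No source names the read counter, so these zeros do not show that their RNA was absent. Endothelial markers split 2 higher in SOM, 7 higher in EMM and 1 not past the test of 10 (14110 to 16607 in SOM, 19007 to 24250 in EMM). Skeletal muscle markers were higher in EMM for 4 of 5 (89.4 to 127 in SOM, 353 to 593 in EMM) and surface ectoderm markers for 3 of 8 (1589 to 2058 in SOM, 4183 to 4617 in EMM).

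Within EMM, replicate 2 was highest and replicate 3 lowest for Hoxd1, Hoxd3, Hoxd8 and Hoxd9, and the same held for the summed neuron, forebrain and midbrain, somite, limb and muscle markers. It did not hold for the other lists. The hindbrain and spinal cord sums of EMM replicates 1 to 4 were 366, 365, 416 and 421, endothelial markers were lowest in replicate 2 and highest in replicate 3, crest glia, surface ectoderm and head mesenchyme markers were highest in replicate 4, and macrophage markers in replicate 1. The forebrain and midbrain sums of EMM replicates 1 to 4 were 325, 477, 161 and 210, and their limb sums were 31.7, 50.6, 18.8 and 41.7. Red blood cell markers were highest in EMM replicate 3, at 271336. The part of these markers and of library depth in the Hox differences was not tested.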

How the data were processed

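The authors deposited 1 table of signal per gene and library, a normalized count, which is a read count divided by a library size factor per the file headers and values. It also holds the authors' log2 fold change (EMM over SOM), Wald score and p-value. The submitters' processing notes name bcl2fastq, STAR, DESeq2 and mm10; no source here gives the read counter, annotation or strand setting. Values were whole multiples of 1 read within 1 ppm for 100% of entries, so reads were recovered.

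The 14249 of 23420 genes that reached 10 normalized counts in 4 or more libraries were fitted as log2(normalized count + 1) with limma 3.58.1 in R 4.3.3 (trend, robust), called at a Benjamini-Hochberg adjusted p of 0.05. This scale understates changes of low genes. Alternatives were edgeR 4.0.16, DESeq2 1.42.0, TMM scaling, other constants and filters, a replicate block and leaving out each library; a filter on the mean and edgeR without a filter were added after seeing the data. Replicates differed by more than counting noise (chi-square per degree of freedom 3.72 to 19.0), so none were merged. Coordinates and exon lengths came from GENCODE M21 on GRCm38, and exons that match RefSeq transcripts were used for levels per length.

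Hox genes were printed by library where they passed the filter or had at least 20 reads. From each list of related genes up to 3 genes per direction were named by lowest adjusted p. Some others, such as Pbx4, Otx2 and Evx1, were named for their level or reads. The members and lists were chosen with earlier results of these data known. A few genes of the clusters and lists are counted in totals but not reported here by name.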

Additional observations from a re-analysis of the deposited data

Results flagged for a closer look

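Hoxd4 in EMM was flagged because a single sample stood apart from the others of its group. EMM replicate 1 had a normalized count of 4.09, from 4 reads, and the other 3 EMM libraries had none. Among 24 checks, this was the only one flagged. Each check took a gene, a summed Hox level or the number of Hox genes with a read, in a single group. Chance flags about 1 in 20, a rate that does not hold for values with such zeros. Without EMM replicate 1 the Hoxd4 difference was 4.34 on the log2 scale, against 3.75 with all libraries.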

How the results depend on the processing

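The 5 Hoxd genes stayed higher in SOM under each alternative in which they were tested. For Hoxd3, Hoxd4 and Hoxd9 the level filter nearly fixed that direction. For these genes, this and the counts of called Hox genes and adjusted p-values below therefore lend no weight to the direction. With a filter at 50 only Hoxd1 was tested, and the number of Hox genes called higher in SOM was 1. Without a filter 7 were called higher in SOM and 1 in EMM, and edgeR without a filter called 6 and 0. Counting genes with at least 3 reads in a library gave 11 in SOM and 8 in EMM, and with at least 10 normalized counts 5 and 3. Leaving out each library in turn gave 5 to 5 Hox genes higher in SOM and 0 to 0 in EMM, 4885 to 5097 of all genes higher in SOM and 4962 to 5269 in EMM, 21 to 24 Hox genes with reads in SOM and 16 to 20 in EMM. The log2 ratio of the summed Hox level, 1.33 with all libraries, then ran from 1.11 to 1.80. At the depth of the smallest library, 19.7 Hox genes with reads were expected in SOM and 17.8 in EMM. Correlations of same-numbered deviations ran from -0.020 to 0.126, and not every sample correlated best with its own number. This cannot settle whether same-numbered pools shared embryos. With the replicate block 5 Hox genes were called higher in SOM and 0 in EMM. In that limma fit the adjusted p was 0.0170 for Hoxd1, 0.000524 for Hoxd3, 1.33e-05 for Hoxd4, 0.00617 for Hoxd8 and 0.000236 for Hoxd9. TMM moved the median of all genes to 0.0354, against 0.0099. Depth limits the 34 Hox genes below the filter, whose reads numbered at most 25 per gene.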
